A study of Caenorhabditis elegans with 24 samples.

Results

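Aminoacyl-tRNA synthetases attach each amino acid to its own tRNA, and the charged tRNA is then delivered to the ribosome. The genes described here are those of Caenorhabditis elegans whose symbol is the one-letter code of an amino acid followed by "ars" and a number from 1 to 3. Of 20447 genes in the count files, 32 met this rule, and all 32 were protein-coding in the WBcel235 annotation. Together they covered 20 amino acids. Animal cells need a set of these enzymes in the cytosol and another in mitochondria, because mitochondrial ribosomes use their own tRNAs. By RefSeq product names, and by background knowledge where the product name gave no compartment, 20 genes were taken as cytosolic and 12 as mitochondrial, and 11 amino acids had a gene of each kind. The product name itself gave the compartment of 4 of the 12 mitochondrial genes. Genes such as kars-1, hars-1 and gars-1 are the only members for their amino acid and may serve both compartments. The cytosolic valine enzyme, glp-4, carries a symbol of another form and was not a member.

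Expression was measured in whole adult animals of the Bristol N2 wild type and of noNSUN, a strain that carries 4 mutations at once: nsun-4(mj457), nsun-2(mj458) and nsun-1(mj473), alleles which replace a catalytic cysteine by alanine, and the deletion nsun-5(tm3898). These genes encode the RNA methyltransferases that make 5-methylcytosine (m5C). Both strains were sampled after growth at 20 °C, and then were either left at 20 °C or heat-shocked at 27 °C for 4 h in liquid culture, so that each assay had 4 groups of 3 replicate libraries, 24 libraries in all. From each lysate of pooled animals, rRNA-depleted RNA and ribosome-protected fragments (RPFs, or footprints) were sequenced. Whole animals were lysed, so fewer cells of a type and less RNA per cell cannot be told apart. Leucine and proline tRNAs are prominent m5C substrates in this animal, and the tRNA Leu-CAA that reads the codon UUG carries the mark at its wobble base. For this reason the leucine enzymes (lars-1, lars-2) and proline enzymes (pars-1, pars-2) were set beside the rest.

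RNA libraries held 1918731 to 3412334 counts and RPF libraries 22761 to 396184, so that 3 counts corresponded to 0.879 to 1.56 CPM (counts divided by library size) in RNA but 7.57 to 132 CPM in footprints. The heat label was borne out by hsp-16.2, a small heat-shock gene, with 2 to 6 RNA counts in each library at 20 °C and 221 to 520 in each at 27 °C. Counts of nsun-5 were 60 to 72 in the wild type and 34 to 41 in noNSUN at 20 °C, and 41 to 46 against 27 to 36 at 27 °C. The other nsun alleles are point mutations that counts cannot check. In RNA the replicate 1 libraries stood apart: within a group, Spearman correlations that involved replicate 1 were 0.933 to 0.980, against 0.984 to 0.990 between replicates 2 and 3. Markers of germline, intestine, epidermis and body wall muscle were present in every RNA library, although 18 to 21 of the 159 epidermal genes had no count in a group, whereas the 46 sperm genes summed to 14.9 to 25.5 CPM per RNA library.

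To show the codon read by the tRNA that carries the wobble mark, the stretch of 30 codons within 1 exon that held most UUG codons is given for lars-1 and pars-1, for rars-1 (arginine enzyme), whose footprints are described with them, and for aars-1 (mitochondrial alanine enzyme), which differed most in RNA. Sequences are from the reference genome, WBcel235, 5′ to 3′ on the coding strand and in frame, with each UUG codon (TTG in DNA) in capitals.
lars-1, chrIII:4185065-4185154, minus strand, codons 375 to 404: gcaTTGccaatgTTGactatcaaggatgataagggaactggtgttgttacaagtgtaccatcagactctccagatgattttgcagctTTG
pars-1, chrIII:7240424-7240513, plus strand, codons 387 to 416: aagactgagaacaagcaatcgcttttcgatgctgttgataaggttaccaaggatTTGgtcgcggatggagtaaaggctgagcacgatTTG
rars-1, chrIII:4914908-4914997, minus strand, codons 502 to 531: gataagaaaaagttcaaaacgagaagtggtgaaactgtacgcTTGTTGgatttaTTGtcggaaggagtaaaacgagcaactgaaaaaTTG
aars-1, chrII:11462516-11462605, minus strand, codons 421 to 450: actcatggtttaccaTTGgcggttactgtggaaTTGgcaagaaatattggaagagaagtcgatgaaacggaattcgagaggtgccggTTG
These windows held 3, 2, 4 and 3 UUG codons. Over the whole coding sequence, UUG made up 2.70% of codons in lars-1 (32 of 1186), 1.38% in pars-1 (8 of 581), 2.81% in rars-1 (20 of 713) and 2.02% in aars-1 (16 of 793). The median was 2.25% over the 32 synthetases and 1.94% over the 19603 genes with a complete coding sequence, with quartiles of 1.29% and 2.62%. Thus lars-1 and rars-1 were UUG-rich without being extreme, at percentiles 77.4 and 80.2 of all genes, and pars-1 was UUG-poor at percentile 27.9. Neither leucine nor proline codons were unusual in their own enzymes: leucine made up 8.60% of codons in lars-1 and proline 4.65% in pars-1, beside medians of 8.66% and 4.33% over all genes.

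RNA of every member was detected in every RNA library, with at least 37 counts. Divided by the length of all exons, the RNA level in the wild type at 20 °C ranked all 20 cytosolic genes above all 12 mitochondrial ones. The highest was kars-1 (lysine enzyme), with 185, 167 and 182 CPM per kb in replicates 1 to 3, or 178 ± 9.64 (SD, n = 3). Next came aars-2 (cytosolic alanine enzyme) with 127 ± 5.56 and tars-1 (threonine enzyme) with 125 ± 3.95, whose ranges overlapped. At the other end, dars-2 (mitochondrial aspartate enzyme) had 15.5 ± 1.69, aars-1 had 13.0 ± 0.779 and ears-2 (mitochondrial glutamate enzyme) had 12.8 ± 1.33 CPM per kb, and the last pair overlapped. The order was a gradual one, since 26 of its 31 neighbouring steps had overlapping ranges, including the step from the lowest cytosolic gene, yars-1 (tyrosine enzyme), to the highest mitochondrial gene, fars-2 (phenylalanine enzyme).

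**Figure D1:**
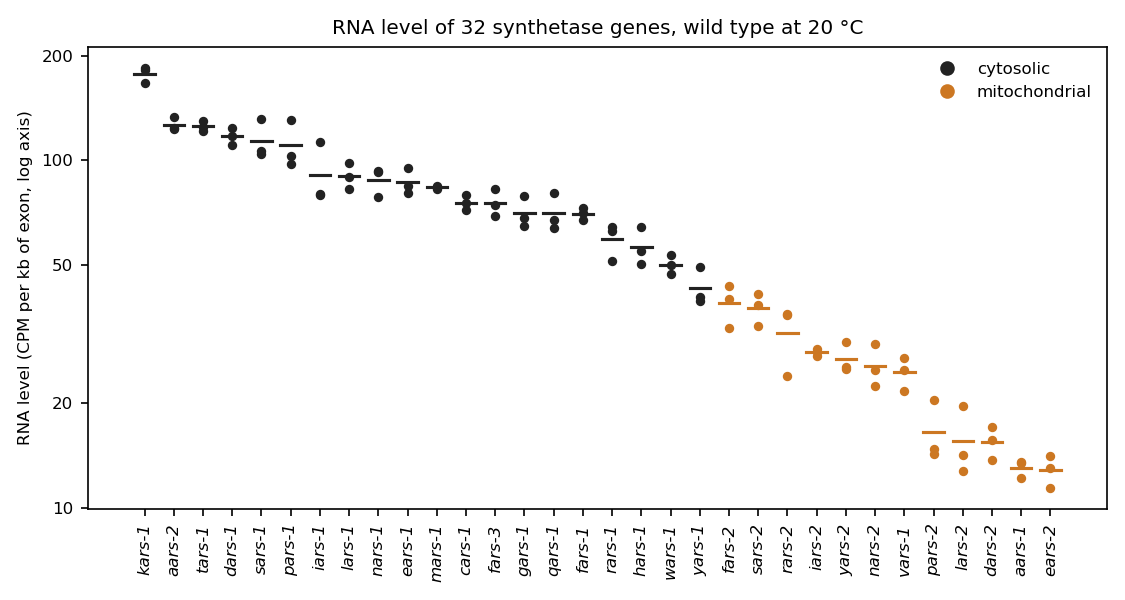
RNA level of the 32 synthetase genes in the wild type at 20 °C, in CPM per kb of exon on a log axis. Points are the 3 libraries, bars their mean, black cytosolic and orange mitochondrial genes; means run from 178 for kars-1 to 12.8 for ears-2, with no mitochondrial mean above a cytosolic one.

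The median cytosolic gene stood at 3.45 ± 0.320 times the median mitochondrial gene in the wild type at 20 °C (SD, n = 3), 3.32 ± 0.226 in the wild type at 27 °C, 3.5 ± 0.42 in noNSUN at 20 °C and 3.85 ± 0.534 in noNSUN at 27 °C, and these ranges overlapped. Within pairs for 1 amino acid, the ratio in the wild type at 20 °C ran from 1.62 ± 0.314 for tyrosine to 9.76 ± 1.04 for alanine. For leucine, lars-1 stood at 5.97 ± 1.00 times lars-2, and for proline pars-1 stood at 6.74 ± 0.413 times pars-2. In noNSUN at 20 °C these ratios were 6.45 ± 1.03 and 6.25 ± 0.532. Libraries of the genotypes overlapped in both ratios, and no test was run on them.

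Heat shock did not detectably alter the RNA of any synthetase gene. With edgeR's quasi-likelihood test, adjusted over all genes tested, 0 of 32 members were called (adjusted p under 0.05) in the wild type, where 0.943% of 10815 genes were called, and 0 of 32 in noNSUN, where 1.04% were. At an unadjusted p under 0.05, reached by 9.75% and 9.1% of all genes, there was 1 member in each: ears-2, 0.39 higher on the log2 scale in the wild type (SE 0.169, adjusted p = 0.470), and aars-1, 0.31 lower in noNSUN (SE 0.141, adjusted p = 0.538). Differences ran from -0.25 to 0.39 in the wild type and from -0.31 to 0.36 in noNSUN, with medians of 0.00 and 0.04 (-0.01 and 0.01 over all genes). The 95% intervals of the 20 cytosolic genes all lay between 0.739-fold and 1.29-fold in the wild type and between 0.705-fold and 1.38-fold in noNSUN, which bounds the response at this depth. DESeq2 also called 0 members in both.

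Between genotypes the RNA of most synthetases differed little. At 20 °C 0 of 32 members were called, against 0.0832% of all genes, with 2 at an unadjusted p under 0.05 (4.54% of all genes). At 27 °C 0 of 32 were called, against 0.0277%, again with 2 at an unadjusted p under 0.05 (2.83%). DESeq2 called 0 at both temperatures. With the replicate number as a block in the fit, edgeR called aars-1, and no other member, at each temperature. The median log2 difference (noNSUN minus wild type) was -0.08 over the cytosolic and -0.14 over the mitochondrial genes at 20 °C, and -0.02 and -0.21 at 27 °C, beside -0.02 and -0.01 over all genes. In 3 members at 20 °C (aars-1, ears-2, sars-2) and 6 at 27 °C (aars-1, dars-2, ears-2, iars-2, mars-1, vars-1) the noNSUN libraries all lay below the wild-type ones, where 4.03% and 4.43% of all genes did, and in 0 members did they all lie above, where 4.37% and 4.62% did. All of these but mars-1, the cytosolic methionine enzyme, were mitochondrial. The 2 genotype comparisons at 20 °C and 27 °C do not share libraries, but they share the fit and its estimate of spread. Same-numbered RNA libraries also tended to deviate together across groups, so the comparisons may not be independent. The difference of the heat response between genotypes called 0 of 32 members in RNA and 0.0% of all genes, with 0 members at an unadjusted p under 0.05 (1.16% of all genes) and 0 called by DESeq2.

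**Figure D2:**
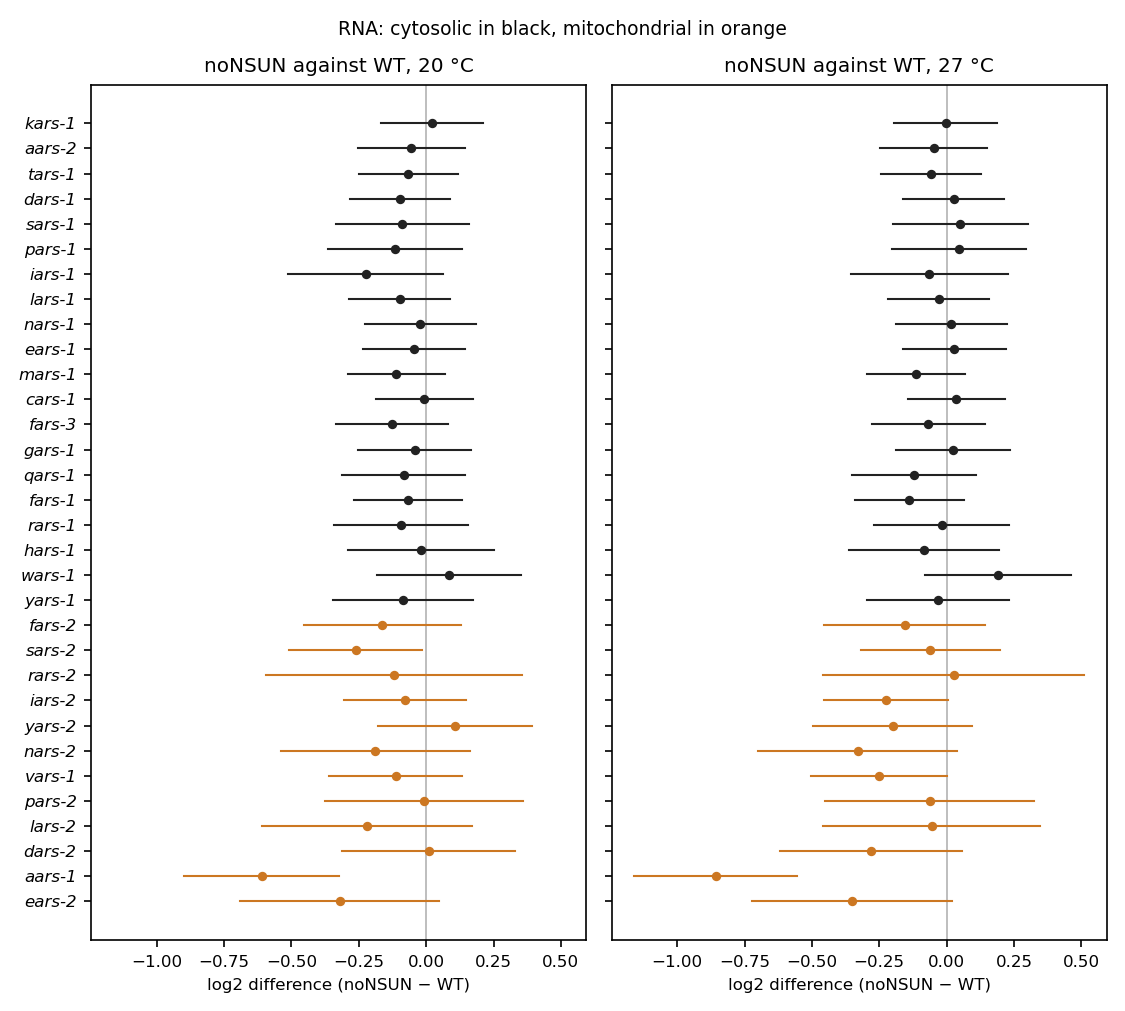
Log2 difference in RNA between noNSUN and wild type for the 32 synthetase genes at 20 °C in the left panel and 27 °C in the right panel, ordered by RNA level. Points are edgeR estimates and lines their unadjusted 95% intervals, with cytosolic genes in black and mitochondrial in orange; aars-1 lies lowest in both, at -0.61 and -0.86.

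The largest RNA difference belonged to aars-1 (WBGene00000196, chrII:11460205-11464497, minus strand), whose RefSeq product is the mitochondrial alanine enzyme and whose exons overlap no other gene. At 20 °C it had 40.4, 40.1 and 36.2 CPM in the wild type (115, 108 and 117 counts) and 27.0, 23.4 and 26.2 CPM in noNSUN (70, 79 and 80 counts). At 27 °C it had 37.8, 36.7 and 37.1 CPM in the wild type (110, 77 and 72 counts) and 18.3, 23.2 and 20.1 CPM in noNSUN (40, 50 and 52 counts). Every noNSUN library thus lay below every wild-type library of either temperature. The log2 difference was -0.61 at 20 °C (SE 0.133, 95% interval -0.90 to -0.32, adjusted p = 0.271) and -0.86 at 27 °C (SE 0.140, -1.16 to -0.55, adjusted p = 0.102), 0.655-fold and 0.552-fold. The main edgeR fit, which had no replicate block, did not call aars-1 after adjustment over 10815 genes. With the replicate block, edgeR called it at both temperatures (adjusted p = 0.0312 and 0.0222). Without the replicate 1 libraries of all groups it was called at both temperatures (edgeR adjusted p = 0.0347 and 0.0416), and without wild-type replicate 1 of 20 °C it was called at 27 °C (adjusted p = 0.0221), with log2 differences of -0.62, -0.77 and -0.85. The shares of all genes called without these libraries are not given. The heat response of aars-1 did not differ detectably between genotypes (-0.25, SE 0.193, 95% interval -0.66 to 0.17, adjusted p = 1.00).

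The cytosolic alanine enzyme aars-2 did not share this pattern, with log2 differences of -0.06 at 20 °C and -0.05 at 27 °C. The aars-2 to aars-1 ratio was 9.76 ± 1.04 in the wild type and 14.3 ± 0.227 in noNSUN at 20 °C, and 10.9 ± 0.206 and 19.3 ± 3.01 at 27 °C (SD, n = 3), with no overlap between genotypes. This was not particular to alanine. The ears-1 to ears-2 ratio did not overlap either (6.77 ± 0.278 against 8.25 ± 0.783 at 20 °C, 5.23 ± 0.477 against 6.89 ± 0.755 at 27 °C). Nor did dars-1 to dars-2 at 27 °C (7.71 ± 0.776 against 9.63 ± 1.44), although it overlapped at 20 °C. In all other pairs the genotypes overlapped at both temperatures. No share over all genes is given for such ratios, and no test was run on them. Footprints of aars-1 could not be compared, since its 12 RPF libraries held 9 counts in all.

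**Figure D3:**
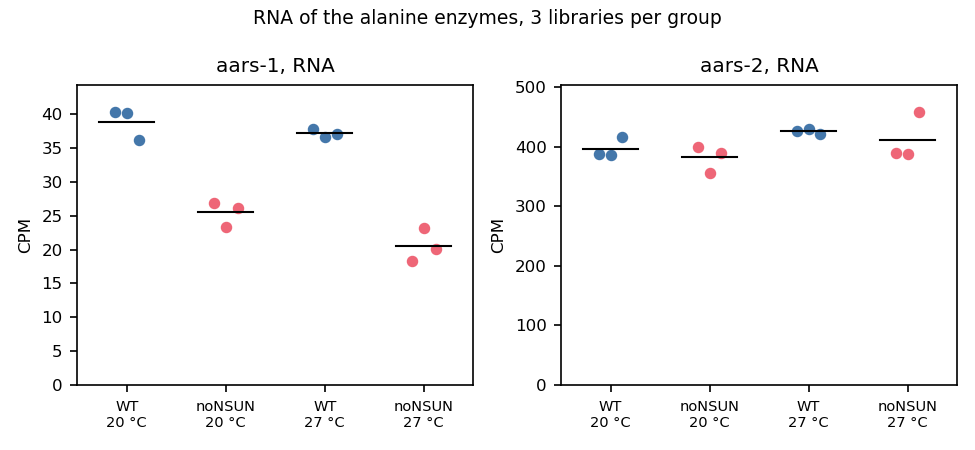
RNA of the mitochondrial alanine enzyme gene aars-1 (left) and its cytosolic counterpart aars-2 (right) in CPM, from 0. Points are the 3 libraries of each group (wild type blue, noNSUN red) and bars their mean; all 6 noNSUN values of aars-1, from 18.3 to 27.0, lie below its 6 wild-type values, from 36.2 to 40.4, while those of aars-2 overlap.

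RNA of the leucine and proline enzymes did not stand out from the other members. For lars-1 (WBGene00003073, chrIII:4181549-4186801, minus strand), CPM in replicates 1 to 3 was 369, 336 and 310 in the wild type against 322, 314 and 312 in noNSUN at 20 °C. At 27 °C it was 346, 322 and 340 in the wild type against 327, 341 and 319 in noNSUN. All 4 groups of lars-1 overlapped.
For pars-1 (WBGene00004189, chrIII:7239027-7241277, plus strand), CPM was 253, 189 and 199 in the wild type against 209, 178 and 205 in noNSUN at 20 °C. At 27 °C it was 195, 194 and 203 in the wild type against 206, 192 and 213 in noNSUN. The groups of pars-1 again overlapped, with wild-type replicate 1 of 20 °C the highest of all.
The mitochondrial leucine gene lars-2 (chrI:7457152-7460756, minus strand) had 53.7, 34.9 and 38.7 CPM in the wild type against 30.8, 40.2 and 37.9 in noNSUN at 20 °C, then 36.1, 38.6 and 47.9 and 37.1, 44.1 and 36.4 at 27 °C. The mitochondrial proline gene pars-2 (chrI:12486944-12490890, plus strand), 153 bp of whose exons overlap another gene on the same strand, had 31.9, 23.0 and 22.3 CPM in the wild type against 24.6, 23.6 and 28.5 in noNSUN at 20 °C, then 21.6, 24.3 and 24.2 and 24.3, 22.3 and 20.5 at 27 °C. Neither gene separated the groups.
In noNSUN against wild type at 20 °C the log2 differences were -0.10 (SE 0.0862) for lars-1 and -0.12 (SE 0.114) for pars-1, ranks 5 and 3 from the lowest of the 20 cytosolic genes, and -0.22 (SE 0.180) for lars-2 and -0.01 (SE 0.17) for pars-2, ranks 4 and 10 of the 12 mitochondrial genes. At 27 °C they were -0.03, 0.05, -0.06 and -0.06, ranks 10 and 18 of 20 and 11 and 9 of 12. The other cytosolic genes spanned -0.23 to 0.08 at 20 °C and -0.14 to 0.19 at 27 °C, and the 4 genes lay within these spans or those of their mitochondrial peers (-0.61 to 0.11 and -0.86 to 0.03).

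Footprints were sparse. Of the 32 members, 19 passed the filter on low counts, all cytosolic, alongside 1624 of 20447 genes. The 12 mitochondrial genes had 0 to 28 counts per library, and 40 of their 144 values were 0. The remaining cytosolic gene, fars-3, which encodes the beta subunit of the phenylalanine enzyme, had 2 to 42 counts per library and did not pass either. Results on footprints therefore concern 19 cytosolic genes.

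Heat shock left synthetase footprints without a call. In the wild type 0 of 19 members were called, against 1.29% of genes tested, with 1 at an unadjusted p under 0.05 (aars-2, 0.69 higher, SE 0.272, adjusted p = 0.316), where 10.6% of all genes were. In noNSUN 0 of 19 were called, against 3.45%, with 0 at an unadjusted p under 0.05, where 268 of 1624 genes were. DESeq2 called 0 in both. In noNSUN the heat-shocked libraries all lay above the unheated ones in 6 of 19 members, where 167 of 1624 genes did. These were cars-1, fars-1, mars-1, nars-1, pars-1 and sars-1. In 0 members did they all lie below, where 179 genes did. In the wild type they all lay above in 1 member (aars-2) and below in 1 (cars-1), where 108 and 113 genes did. The unheated noNSUN libraries also enter the genotype comparison below. The median log2 heat difference of the 19 genes was -0.12 in the wild type and 0.23 in noNSUN (0.00 over all genes in both), with 12 of 19 lower in the wild type and 16 of 19 higher in noNSUN. These intervals were wide, reaching 0.465-fold and 4.36-fold in the wild type.

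At 20 °C the footprints of several cytosolic synthetases were lower in noNSUN, although none passed the adjusted test. edgeR called 0 of 19 members, where 1.72% of 1624 genes were called, and DESeq2 called 0. At an unadjusted p under 0.05, 6 of 19 members were lower and 0 higher, against 7.02% of all genes lower. These 6 were pars-1, rars-1, nars-1 (asparagine enzyme), fars-1 (alpha subunit of the phenylalanine enzyme), lars-1 and mars-1. The median over the 19 genes was -0.34, beside -0.02 over all genes, and 15 of 19 were below 0. In 5 members (cars-1, the cysteine enzyme, with mars-1, nars-1, pars-1 and rars-1) the noNSUN libraries all lay below those of the wild type, where 8.74% of all genes did. In 2 members (aars-2 and gars-1, the glycine enzyme) they all lay above, where 10.9% of all genes did. Footprints of collagen and other epidermal markers ran higher in the same noNSUN libraries, with 5 of 35 tested genes called higher (0 lower). Their summed level over 159 genes was 21322 to 28566 CPM against 14248 to 22878 in the wild type, so the groups overlapped. Their summed RNA was 8029 to 9199 CPM against 6148 to 7908, with 2 of 86 tested genes called higher (0 lower), where 0.0832% of all genes were called. The typical epidermal gene did not follow this sum in RNA: the median log2 difference was -0.53 over these 86 genes and 0.28 over the 35 in footprints. Other tissue lists also had footprint medians above 0: 0.36 in germline and oocyte, 0.21 in body wall muscle and 0.18 in intestine. In these lists 0 genes were called in footprints between genotypes at 20 °C. The part of these tissue levels in the synthetase values, which are shares of the same libraries, was not tested.

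**Figure D4:**
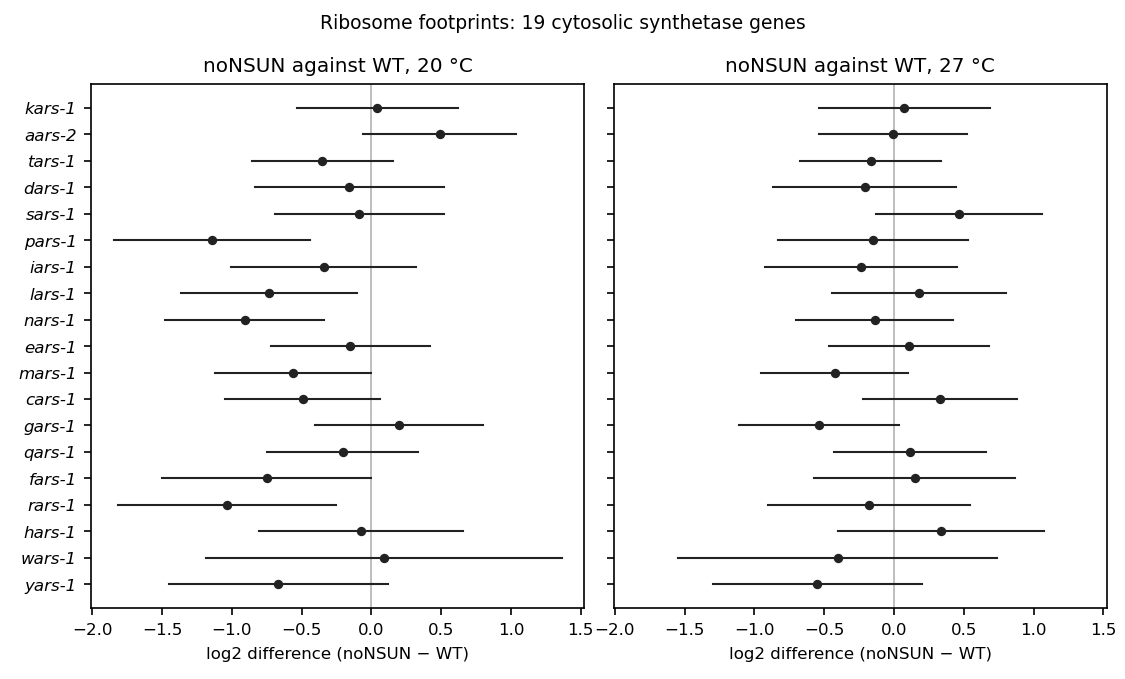
Log2 difference in footprints between noNSUN and wild type for the 19 cytosolic synthetase genes that passed the filter, at 20 °C in the left panel and 27 °C in the right panel. Points are edgeR estimates and lines their unadjusted 95% intervals; at 20 °C 15 of 19 estimates lie below 0, down to -1.14 for pars-1, and at 27 °C 11 of 19, down to -0.55.

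The gene with the lowest footprint difference was pars-1. It had 527, 502 and 649 RPF CPM in the wild type at 20 °C (19, 50 and 31 counts) and 226, 293 and 236 in noNSUN (15, 12 and 6 counts), so the groups did not overlap. The log2 difference was -1.14 (SE 0.344, 95% interval -1.85 to -0.44, edgeR adjusted p = 0.0870), 0.453-fold. At 27 °C pars-1 had 390, 242 and 724 RPF CPM in the wild type against 299, 434 and 387 in noNSUN, overlapping, with a difference of -0.15 (SE 0.332, -0.83 to 0.53, adjusted p = 0.973).

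For lars-1, RPF CPM at 20 °C was 749, 1355 and 754 in the wild type (27, 135 and 36 counts) and 497, 806 and 472 in noNSUN (33, 33 and 12 counts). Replicate 2 was the highest in both groups, and its noNSUN value lay above 2 wild-type values. The log2 difference was -0.73 (SE 0.309, 95% interval -1.37 to -0.10, edgeR adjusted p = 0.214), and -0.37 (adjusted p = 0.732) without wild-type replicate 2. At 27 °C lars-1 had 968, 483 and 603 RPF CPM in the wild type against 705, 1013 and 731 in noNSUN, with a difference of 0.18 (SE 0.306, -0.45 to 0.80, adjusted p = 0.961).

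Among the 19 genes, pars-1 ranked lowest and lars-1 the fifth lowest at 20 °C, while the other 17 spanned -1.03 to 0.49. The proline and leucine enzymes thus lay at or near the low end of the class but within reach of others outside it. At 27 °C they ranked 9 and 16 of 19.

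Values of the same size were seen for enzymes of other amino acids. For nars-1 (WBGene00003815, chrI:7088030-7090062, minus strand), RPF CPM at 20 °C was 610, 732 and 879 in the wild type (22, 73 and 42 counts) and 377, 366 and 472 in noNSUN (25, 15 and 12 counts), without overlap. The log2 difference was -0.91 (SE 0.279, 95% interval -1.48 to -0.34, edgeR adjusted p = 0.0877). For rars-1 (WBGene00004679, chrIII:4914088-4917177, minus strand) the values were 333, 522 and 335 in the wild type (12, 52 and 16 counts) and 241, 122 and 236 in noNSUN (16, 5 and 6 counts), again without overlap. Its log2 difference was -1.03 (SE 0.383, -1.82 to -0.25, adjusted p = 0.159), and -0.46 (adjusted p = 0.792) without the replicate 2 libraries. Both rars-1 and nars-1 were chosen for this detail after their values were seen. RNA of nars-1 and rars-1 differed by -0.02 and -0.09 between the same groups.

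**Figure D5:**
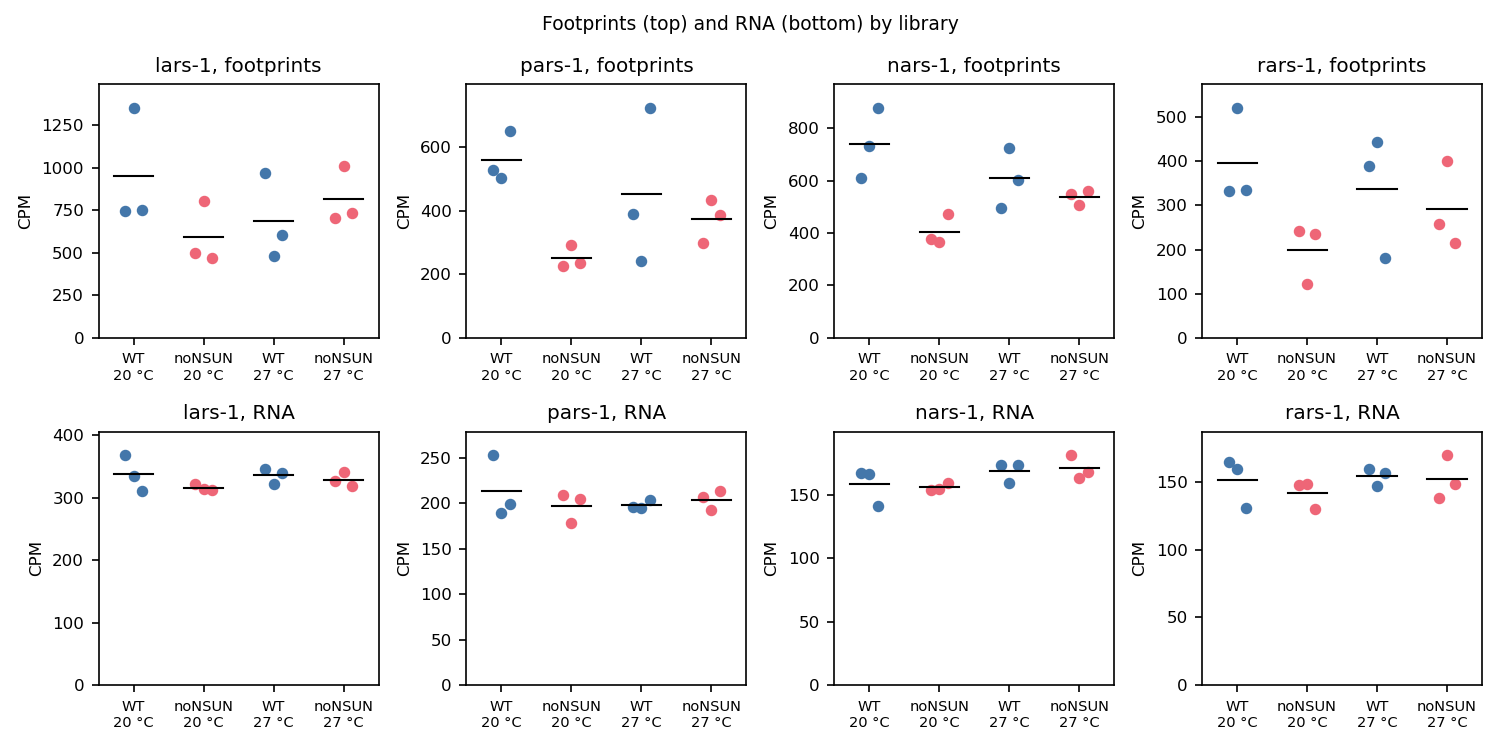
Footprints (top row) and RNA (bottom row) of lars-1, pars-1, nars-1 and rars-1 in CPM, from 0, by group. Points are the 3 libraries (wild type blue, noNSUN red) and bars their mean; at 20 °C the noNSUN footprints of pars-1, nars-1 and rars-1 lie below those of the wild type, whereas the RNA of all 4 genes overlaps.

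At 27 °C the footprint difference was not seen. 0 of 19 members were called, against 0.0616% of genes tested, with 0 at an unadjusted p under 0.05 (7.39% of all genes) and 0 called by DESeq2. In 0 of 19 members did the noNSUN libraries all lie below the wild type, where 5.67% of all genes did, and the median was -0.14. In 1 member they all lay above, where 7.94% of all genes did. This was cars-1, which had 524, 564 and 422 RPF CPM in the wild type (39, 14 and 7 counts) against 639, 654 and 645 in noNSUN (77, 193 and 15 counts), whereas at 20 °C its noNSUN libraries lay below. Whether the 2 temperatures differed was tested as the difference of the heat response between genotypes. That test called 0 of 19 members and 0.0% of all genes, also with DESeq2, and 3 members had an unadjusted p under 0.05, where 5.17% of all genes did: cars-1 (0.82, SE 0.383), lars-1 (0.91, SE 0.435) and pars-1 (0.99, SE 0.478), each with an edgeR adjusted p of 0.840. The lars-1 value ran from 0.37 without the replicate 2 libraries to 1.56 without the replicate 1 libraries. The loss of the difference at 27 °C was therefore not established for any gene, and this comparison used the same 20 °C libraries as above.

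Translation efficiency (TE), the footprint level per kb of coding sequence over the RNA level per kb of exon in the same lysate, gave a like picture, since RNA hardly differed. At 20 °C edgeR called 0 of 19 members, against 0.25% of 1599 genes. At an unadjusted p under 0.05, 7 of 19 were lower in noNSUN, against 8.01% of all genes, and 1 (aars-2, 0.49) was higher. The main TE fit did not pair the libraries of a lysate and shared 1 estimate of spread between the deep RNA and the sparse footprints. Its median SE over the 19 genes was 0.244, beside 0.296 for footprints alone, so its p-values may be too small. For nars-1 TE was 4.09, 4.94 and 7.0 in the wild type against 2.76, 2.66 and 3.32 in noNSUN, a log2 difference of -0.94 (SE 0.229, edgeR adjusted p = 0.0591). DESeq2 called this gene (adjusted p = 0.0459). Without wild-type replicate 1 of 20 °C edgeR called 2 members, nars-1 (-1.06, adjusted p = 0.0335) and pars-1 (-1.22, adjusted p = 0.0403). The share of all genes above is that of the main fit. Shares under these alternatives are not given, so the calls cannot be set beside them.

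For pars-1 TE at 20 °C was 2.35, 2.99 and 3.68 in the wild type against 1.22, 1.86 and 1.3 in noNSUN, which did not overlap (log2 difference -1.07, SE 0.315, edgeR adjusted p = 0.109). For lars-1 it was 2.15, 4.28 and 2.58 against 1.64, 2.73 and 1.60, which overlapped (-0.70, SE 0.310, adjusted p = 0.251). Without wild-type replicate 2 of 20 °C the lars-1 value was -0.28 (adjusted p = 0.852). Of the 19 genes these ranked 1 and 5 from the lowest, with the other 17 between -1.0 and 0.49. In the wild type at 20 °C the TE of the 19 genes ran from 1.61 ± 0.35 for kars-1, the gene with most RNA, to 5.34 ± 1.5 for nars-1 (SD, n = 3). At 27 °C 0 of 19 were called in TE (0.0% of all genes), with 1 at an unadjusted p under 0.05, where 6.0% of all genes were. Neither the heat response of the wild type nor that of noNSUN nor their difference gave a call among the 19 genes, in edgeR or in DESeq2, with 0.0% of all genes called by edgeR in each. At an unadjusted p under 0.05 there were 3 members in the wild type (6.0% of all genes), 3 in noNSUN (11.8%) and 6 in the difference (8.32%).

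Codon shares are given for the same genes as a description. UUG made up 1.38% to 2.94% of codons (median 2.53%) in the 6 genes with lower footprints at 20 °C at an unadjusted p under 0.05. In the other 13 it made up 1.32% to 3.32% (median 2.05%), so the ranges overlapped. These 13 also include genes with lower footprints, such as cars-1, since 15 of 19 members were below 0. The lowest gene, pars-1, had a UUG share of 1.38%, while yars-1 had the highest at 3.32%. Leucine codons had medians of 8.65% and 9.24%, and proline codons 4.34% and 4.31%. Across the 19 genes, which share libraries and are not replicates, the Spearman correlation of the footprint difference with the UUG share was -0.25, with the leucine share -0.02 and with the proline share -0.01.

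Genes that act after or beside charging were compared in the same fits. Of 10 genes for the delivery of charged tRNA, among them the elongation factors eef-1A.1 and eef-2, 0 of 10 were called in RNA and 0 of the 7 tested in footprints, in any of the 5 comparisons. Over all genes these comparisons called 0.0% to 1.04% in RNA and 0.0% to 3.45% in footprints. Another 9 genes sense uncharged tRNA or amino acids or act in related responses, among them the kinase gene gcn-2 and atf-4. Of these, 0 of 9 in RNA and 0 of 4 in footprints were called. The RNA of atf-4, which encodes a transcription factor of the amino acid response, was 0.47 higher after heat in the wild type (SE 0.182, edgeR adjusted p = 0.368) and 0.60 higher in noNSUN (SE 0.185, adjusted p = 0.211). A list of 17 genes of tRNA maturation and modification also held nsun-1 and nsun-5, which encode 26S rRNA methyltransferases. Of these 17, 1 fell with heat in the wild type, where 0.943% of all genes were called: nsun-1 (-0.47, SE 0.0952, edgeR adjusted p = 0.0360). In noNSUN 1 fell, where 1.04% were called: elpc-1, a subunit of the Elongator complex that modifies wobble uridines (-0.53, SE 0.0885, edgeR adjusted p = 0.00974). Neither heat response differed detectably between genotypes (0.22, SE 0.135, for nsun-1 and -0.17, SE 0.125, for elpc-1, edgeR adjusted p = 1.00 for both). Of the 3 genes of this list tested in footprints, 0 were called.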

How the data were processed

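The authors aligned reads with HISAT2 2.1.0 to WBcel235 after trimming with Trimmomatic 0.39, and deposited raw counts per gene, obtained for RNA with HTSeq-count and for RPFs as in-frame footprints on the longest coding sequence without its first 10 codons. The HTSeq version, strand setting and annotation release are not given in the sources used here, so reads in the exon overlaps that 14 members have with other genes (at most 153 bp) may be misassigned. Counts were tested in R 4.3.3 with edgeR 4.0.16 (quasi-likelihood, TMM, filterByExpr with a minimum count of 10 and a total of 15, Benjamini-Hochberg over all genes tested, two-sided, 12 libraries in 1 fit per assay, 24 for TE as the interaction of assay and group). DESeq2 1.42.0, other size factors, no filter, fewer groups, replicate block, length and GC offset, and leaving out libraries were alternatives. CPM is per TMM-scaled library of filtered genes. Intervals are unadjusted. The scripts were tested on simulated data. The authors state biological replicates, and p-values measure the spread between these libraries. The members and lists were chosen with earlier results of these data known. Named genes were lars-1, lars-2, pars-1, pars-2, the 3 highest and 3 lowest by RNA level and any member called in the main fits (0 were called). Other members were named after their values were seen. Symbol gcn-20 was not found in the annotation.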

Additional observations from a re-analysis of the deposited data

How the results depend on the processing

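In RNA, footprints and TE, 15 counts of members called were recomputed under up to 22 alternatives each, and 319 of these 328 recomputations (with the class ratio of RNA levels) gave the same count. Same-numbered RNA libraries deviated together (correlation over 0.1) in 17 of 18 pairs. Their correlations ran from 0.0859 to 0.659, with a mean of 0.377 beside -0.177 for other pairs. RPF libraries did so in 7 of 18 pairs, with means of 0.0746 and -0.0372. Both fall short of every pair, so the main fits did not pair the libraries by number. A pairing in RNA was not excluded, and whether aars-1 was called depended on that choice. With the replicate block, 1 member (aars-1) was called in RNA at 20 °C (log2 -0.61, adjusted p = 0.0312) and 1 at 27 °C (-0.86, adjusted p = 0.0222), where 160 and 23 genes were called in all, and the block changed no other count of members. With the length and GC offset as well as the block, 1 was called at each (-0.62, adjusted p = 0.0265, and -0.85, adjusted p = 0.0141). Leaving out libraries gave 0 to 1 called in RNA at each temperature, 0 to 2 in TE at 20 °C and 0 elsewhere, and DESeq2 called 1 in TE at 20 °C (nars-1, -0.90). For these settings, and for the offset with the block, totals over all genes are not given. The class ratio of RNA levels was 3.45 with either gene length.

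Single values near 0 turned sign without a call. The RNA heat difference of lars-1 in the wild type was 0.048 with the offset and 0.049 with the offset and the block. The RNA difference of pars-2 at 20 °C was 0.0079 with no filter, 0.00067 with the block, 0.0031 with the offset and 0.014 with both. The difference of pars-1 at 27 °C was 0.10 in footprints with no filter. Ranges on leaving out libraries were as follows. For heat in the wild type RNA ran from -0.083 to 0.043 for lars-1, -0.25 to 0.22 for lars-2, -0.19 to 0.029 for pars-1 and -0.27 to 0.10 for pars-2. For heat in noNSUN it ran from -0.0064 to 0.18 for lars-2 and -0.020 to 0.089 for pars-1. Between genotypes at 20 °C it ran from -0.41 to 0.082 for lars-2, -0.19 to 0.022 for pars-1 and -0.18 to 0.20 for pars-2, and at 27 °C from -0.080 to 0.0067 for lars-1, -0.18 to 0.12 for lars-2 and -0.18 to 0.026 for pars-2. In footprints the heat difference of lars-1 in the wild type ran from -1.05 to 0.17, and at 27 °C the genotype difference ran from -0.24 to 0.81 for lars-1 and -0.59 to 0.16 for pars-1. The cause of these shifts was not tested. RPF depth limits the rest: the other 13 members could not be tested there.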

Other observations

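The gene glp-4, which encodes the cytosolic valine enzyme and was looked at after its values were seen, had 0.556-fold the wild-type footprints in noNSUN at 20 °C (log2 difference -0.85, SE 0.260, edgeR adjusted p = 0.0877) and 0.678-fold at 27 °C (-0.56, SE 0.249, adjusted p = 0.645). Its counts at 20 °C were 40, 98 and 54 in the wild type and 41, 23 and 15 in noNSUN. Its RNA differed by -0.02 at 20 °C (SE 0.104) and 0.04 at 27 °C (SE 0.105), and its TE by -0.86 (SE 0.226, adjusted p = 0.0704) and -0.55 (SE 0.215, adjusted p = 0.624).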
